A study of Mus musculus with 6 samples.

Results

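The 10 genes described here encode the calcium/calmodulin-dependent kinases and the proteins that act directly on them. They comprise 4 genes of CaMK2 (Camk2a, Camk2b, Camk2d and Camk2g), the CaMK1 genes Camk1 and Camk1d, Camk4, the upstream kinase genes Camkk1 and Camkk2, and the CaMK2 inhibitor gene Camk2n1. They were chosen by gene symbol, and all 10 were found among 23792 gene rows. RNA was sequenced from the heart ventricles of male C57BL/6-FVB mice, 6 to 8 weeks old, with 3 mice in each group. Both groups carried the same pair of transgenes, the tetracycline transactivator tTA driven by the αMHC promoter, which is active in cardiomyocytes, and a tetracycline-responsive HIF-1α-PPN, a mutated HIF1α in which 3 residues were replaced so that normal oxygen does not lead to its breakdown. Control mice stayed on doxycycline in sucrose-water, given since conception, and HIF-PPN mice had been off doxycycline for 3 days. Loss of the drug and expression of HIF-PPN therefore came together and cannot be told apart. The deposited values are FPKM (sequenced fragments divided by transcript length and by the number mapped), and each gene has 1 value per group in which the 3 mice are already merged. No value has a replicate, an error or a read count behind it here, so no difference below was tested against the spread between mice, and neighbouring levels could not be compared with their spread.

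Calcium that enters the cytosol at each heartbeat binds calmodulin, and calcium-loaded calmodulin switches on these kinases. CaMK2 assembles into multi-subunit rings whose subunits phosphorylate each other, which keeps the enzyme active after calcium has fallen, and in cardiomyocytes it phosphorylates calcium channels, the ryanodine receptor and phospholamban. CaMK1 and CaMK4 instead need a second phosphorylation by CaMKK, and CaMKK2 also phosphorylates the energy sensor AMPK. The protein of Camk2n1 binds the active CaMK2 catalytic domain and blocks it.

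Camk2b was the family gene with the largest fold between the groups among the expressed members, and it was higher in HIF-PPN hearts. A gene counted as expressed when it reached 1 FPKM in at least 1 group and was above 0 in both, which held for 8 of the 10 members and for 12098 genes in all. Of the 8, only Camk2b differed at least 2-fold, beside 2.11% of all expressed genes past that fold on the higher side, 1.09% on the lower side and 3.20% in either direction. Higher values in HIF-PPN hearts were seen for 5 of the 8 and lower values for 3, beside 52.1% of all expressed genes with a higher value. The median log2 of HIF-PPN over control was 0.10 over the 8 members and 0.01 over all expressed genes, and the median of its absolute size was 0.21 and 0.18. All 8 also reached 1 FPKM in both groups, so none was counted through 1 group alone.

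**Figure D1:**
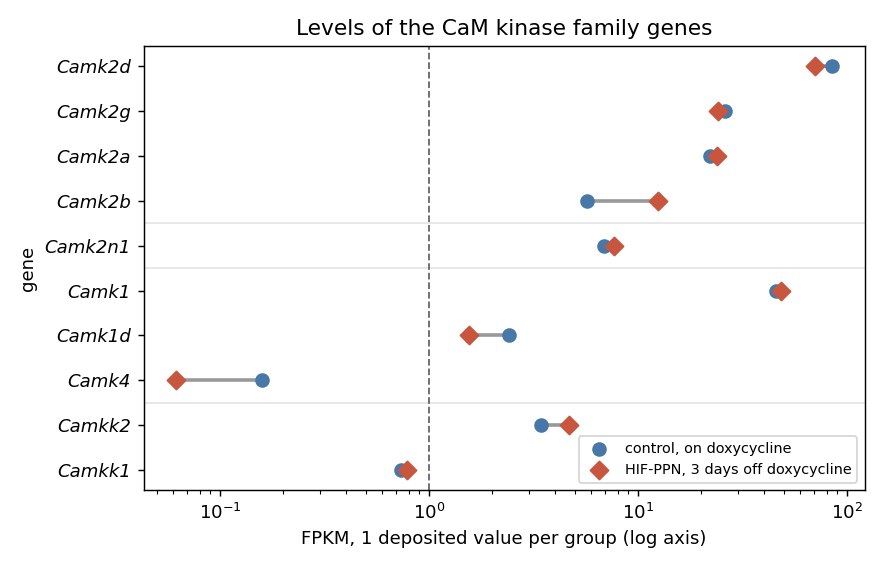
Level of each of the 10 family genes (FPKM, log axis) in control hearts (circles) and HIF-PPN hearts (diamonds), 1 deposited value per group, ordered by CaMK2 kinases, the CaMK2 inhibitor, CaMK1 and CaMK4, and CaMKK. The dashed line marks 1 FPKM, which Camk4 and Camkk1 did not reach in either group, and Camk2b has the widest gap between the groups of the genes to its right.

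Camk2d encodes CaMK2δ, the main CaMK2 of cardiomyocytes, and its transcript was the most abundant of the family in both groups. It was at 84.6 FPKM (control) and 70.6 FPKM (HIF-PPN), 16.6% lower (log2 of HIF-PPN over control −0.26). In level it stood above 93.1% of expressed genes by the mean of both groups. A larger absolute log2 was found in 34.4% of expressed genes, so a difference of this size was common in these data. In GRCm38, Camk2d lies on chromosome 3 from 126596973 to 126845054, and it has 17 coding transcripts in the GENCODE annotation used here. The deposited value is 1 number for the gene and does not separate its transcripts.

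Camk2g encodes CaMK2γ, the other CaMK2 usually found in cardiomyocytes, and Camk2a encodes CaMK2α, best known from forebrain neurons. Camk2g was at 26.1 FPKM (control) and 24.2 FPKM (HIF-PPN), a log2 of −0.11. Camk2a was at 22.1 and 23.8 FPKM (log2 0.11). Both differed by less than 10% between the groups, in opposite directions, and their levels were close to each other, with Camk2a at 0.85 times Camk2g in control hearts and 0.99 times in HIF-PPN hearts. The Camk2a gene also gives rise to αKAP, an anchoring protein of skeletal and heart muscle that lacks the kinase domain, and a gene value does not tell its transcript from those of the kinase. Camk2g has 4 coding transcripts in the GENCODE annotation, and its 1 value per group does not separate them. Differences between its transcripts would thus not be seen here. Camk2g lies on chromosome 14 from 20734873 to 20794088 and Camk2a on chromosome 18 from 60925632 to 60988152.

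Camk2b encodes CaMK2β, known for binding actin filaments in neurons and also made as muscle variants. It was at 5.69 FPKM (control) and 12.5 FPKM (HIF-PPN), 119.9% higher (log2 1.14). It was the lowest CaMK2 gene in both groups. Its log2 lay above that of 98.3% of expressed genes, and 0.744% of the 4972 genes with a mean between 5 and 20 FPKM, a range chosen after its value was seen, were at least 2-fold higher. Camk2b lies on chromosome 11 from 5969666 to 6065748, overlaps no other RefSeq gene, and has 11 coding transcripts in the GENCODE annotation.

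**Figure D2:**
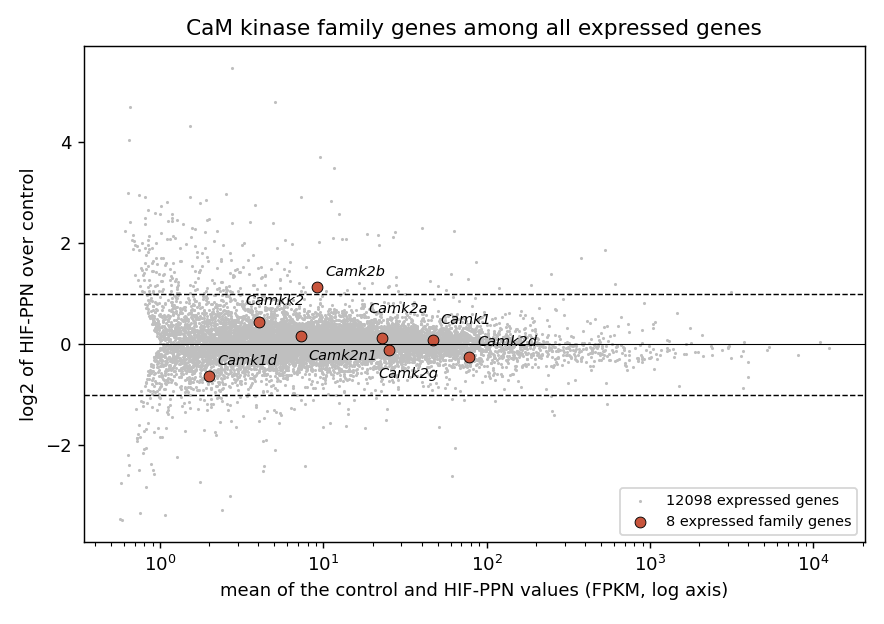
Log2 of HIF-PPN over control against the mean of both group values (FPKM, log axis) for 12098 expressed genes (grey) and the 8 expressed family genes (red). Dashed lines mark 2-fold in either direction. Camk2b lies above the upper line at a log2 of 1.14, and the other 7 lie between the lines.

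The CaMK2 pool differed little in size between the groups and more in how it was divided among its genes. Since FPKM is scaled to transcript length, the values of the 4 genes can be added. Their sum was 138 FPKM (control) and 131 FPKM (HIF-PPN), 5.28% lower (log2 −0.08). The median absolute log2 of all expressed genes was larger, at 0.18. Rescaling each group to its sum over all genes would raise every log2 by 0.06. In HIF-PPN hearts Camk2d was lower by 14.1 FPKM and Camk2g by 1.88 FPKM, while Camk2b was higher by 6.82 FPKM and Camk2a by 1.80 FPKM. The difference at Camk2b was thus smaller than the opposite one at Camk2d, and without Camk2b the sum of the other 3 genes was 10.6% lower in HIF-PPN hearts.

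Camk2d made up 61.1% of the summed CaMK2 FPKM in control hearts and 53.8% in HIF-PPN hearts, a share smaller by 7.31 percentage points. Camk2b made up 4.11% and 9.54%, a share larger by 5.43 points. The share of Camk2a was 15.9% and 18.2%, and that of Camk2g 18.8% and 18.5%. Camk2d was the largest share in both groups, Camk2g and Camk2a followed, and Camk2b came last. For each FPKM of Camk2b there were 14.9 FPKM of Camk2d in control hearts and 5.64 in HIF-PPN hearts. The ratio of Camk2d to Camk2g differed less, at 3.25 and 2.92. With Camk2a left out of the sum, because of αKAP, Camk2b made up 4.89% and 11.7% and Camk2d 72.7% and 65.8%. These are shares of transcript abundance, and the deposited values do not measure the CaMK2 proteins or their assembly into rings.

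**Figure D3:**
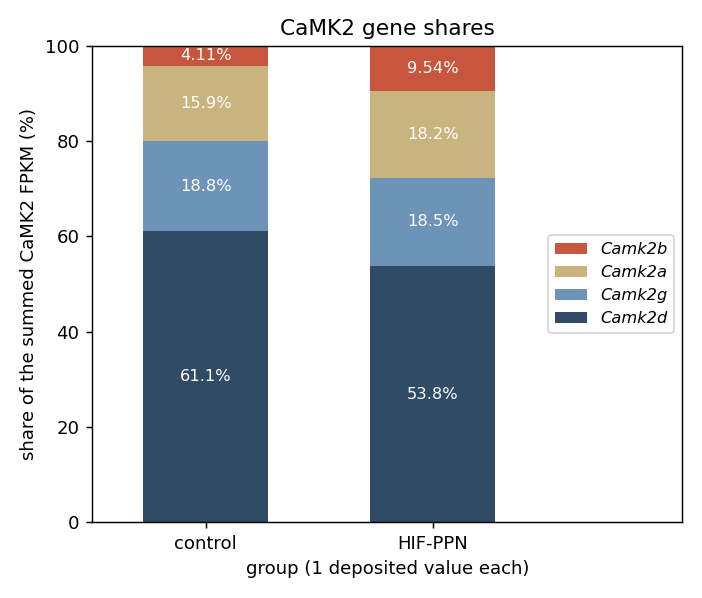
Share of each CaMK2 gene (%) in the summed FPKM of the 4 CaMK2 genes, in control and HIF-PPN hearts, from 1 deposited value per group. Camk2d takes 61.1% and 53.8% and Camk2b 4.11% and 9.54%, while Camk2g takes 18.8% and 18.5%.

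CaMK2β and its muscle variants occur in neurons and skeletal muscle, so the markers of both are given beside the Camk2b value. Of 12 skeletal muscle markers, 4 were expressed, and of these Casq1, Mybpc2 and Myot exceeded 2-fold on the higher side (log2 2.12, 2.08 and 1.17) and Tnni2 was at least 2-fold lower (−2.73), the latter expressed only through its control value (3.06 and 0.461 FPKM). The summed level of the 12 was 37.4 FPKM (control) and 107 FPKM (HIF-PPN). Most of it came from Casq1 (9.99 and 43.4 FPKM), Mybpc2 (5.29 and 22.3 FPKM) and Myot (17.1 and 38.5 FPKM). Besides these and Tnni2, the other 8 markers stayed under 1 FPKM in both groups. The listed myosin heavy chain genes of fast skeletal fibres were at or near 0 in both groups. Myh4 was listed at 0 and 0, Myh1 at 0.00644 and 0 FPKM, and Myh2 at 0.0175 and 0.00682 FPKM. The list held no myosin heavy chain gene of slow fibres. Of 12 neuronal markers, 4 were expressed and 8 stayed under 1 FPKM in both groups. Tubb3 and Uchl1 were past 2-fold higher (log2 1.26 and 1.28), and Dbh was at least 2-fold lower (−1.81). The most abundant neuronal marker by the mean of both groups was Uchl1, at 3.15 and 7.65 FPKM. Stmn2, the most abundant in control hearts, was slightly lower in HIF-PPN hearts, at 4.63 and 4.26 FPKM (−0.12). Tubb3 counted as expressed only through its HIF-PPN value (0.601 and 1.44 FPKM) and Dbh only through its control value (3.40 and 0.973 FPKM), so at 1 FPKM in both groups Uchl1 was the only one past 2-fold. The neuronal markers summed to 12.4 and 16.1 FPKM, with Snap25 listed at 0 in control hearts and at 0.412 FPKM in HIF-PPN hearts. The part of such cells in the Camk2b value was not tested.

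The model expresses a transcription factor, so the promoters of the family were searched for the core letters of a hypoxia response element, ACGTG or GCGTG, on both strands. The search covered the 250 bases before a start site given in a table of RefSeq promoters (GRCm38.p6). These start sites need not be the outermost of a gene, and of the 7 family windows only that of Camk1 ended at the outer end of the full RefSeq span. Those of Camk2b, Camkk2 and Camk2d had their start sites 609, 112 and 1464 bases inside it. ACGTG overlaps the E-box CACGTG, a motif of clock and MYC factors, which occurred in none of the family windows. Of the 10 genes, 6 had a window in the table, and 1 of them (Camk1d) had a pair. At least 1 match was found in 38.6% of all 32851 windows, at least 3 in 6.58% and at least 4 in 2.58%. Among the 9051 expressed genes with a window, 61.8% held a match, 14.3% at least 3 and 5.86% at least 4, beside a match in 3 of the 5 expressed members with a window. The Camk2b window held 3 matches, the Camkk2 window 4, the Camkk1 window 2, the Camk1d windows 1 and 0, and those of Camk2d and Camk1 none. The windows of Camk2b and Camkk2, the expressed members with the highest log2, and that of Camk2d, the most abundant member, are shown 5′ to 3′ on the strand of the gene, with matches in capitals (CACGC is GCGTG on the other strand).
Camk2b, chr11:6065749-6065998, minus strand: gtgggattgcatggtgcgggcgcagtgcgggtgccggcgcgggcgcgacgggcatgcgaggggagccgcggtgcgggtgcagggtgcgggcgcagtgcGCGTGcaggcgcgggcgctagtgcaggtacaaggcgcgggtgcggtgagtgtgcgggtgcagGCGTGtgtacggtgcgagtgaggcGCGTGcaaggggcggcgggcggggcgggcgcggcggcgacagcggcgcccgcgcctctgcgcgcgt
Camkk2, chr5:122779411-122779660, minus strand: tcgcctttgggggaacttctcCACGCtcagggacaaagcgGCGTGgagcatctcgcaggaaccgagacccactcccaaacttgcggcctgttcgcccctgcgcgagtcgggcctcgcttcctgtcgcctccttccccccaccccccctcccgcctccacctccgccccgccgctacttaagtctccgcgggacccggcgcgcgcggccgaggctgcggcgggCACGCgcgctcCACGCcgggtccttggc
Camk2d, chr3:126596701-126596950, plus strand: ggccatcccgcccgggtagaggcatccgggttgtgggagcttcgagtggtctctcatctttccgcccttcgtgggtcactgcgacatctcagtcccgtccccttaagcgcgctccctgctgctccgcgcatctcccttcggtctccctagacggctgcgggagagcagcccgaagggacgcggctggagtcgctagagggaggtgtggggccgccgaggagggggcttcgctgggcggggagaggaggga
In the Camk2b window the matches began 152, 90 and 66 bases before the start site of that window, all GCGTG on the strand shown. The Camk2b window was 78.4% G and C, that of Camkk2 72.4% and that of Camk2d 68.4%. Among all expressed genes with a window, values at least 2-fold higher were seen in 1.66% of the 5595 genes with a match. They were seen in 2.31% of the 3456 genes without one, and the median log2 was 0.02 and 0.00. Whether a match bears on the value of a gene was not tested. A match is a run of letters and not a measured binding site.

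Camk2n1, the inhibitor gene, was at 6.90 FPKM (control) and 7.68 FPKM (HIF-PPN), 11.3% higher (log2 0.15). It stood at 4.98% of the summed CaMK2 FPKM in control hearts and at 5.85% in HIF-PPN hearts. Against Camk2d alone it stood at 8.15% and 10.9%, with a lower kinase value and a higher inhibitor value in HIF-PPN hearts. Transcripts of the kinase thus outnumbered those of the inhibitor in both groups. Camk2n1 lies on chromosome 4 from 138455148 to 138460126. The second inhibitor gene, Camk2n2, was under 1 FPKM in both groups (0.728 and 0.956 FPKM).

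Camkk2 encodes the CaMKK that activates AMPK as well as CaMK1 and CaMK4, and it had the second highest log2 of the family. It was at 3.43 FPKM (control) and 4.68 FPKM (HIF-PPN), 36.4% higher (log2 0.45). A larger absolute log2 was found in 15.4% of expressed genes. In the deposited rows the gene lies on chromosome 5 from 122731170 to 122779410, and no other gene has the same positions. Its wider RefSeq span, from 122718380 to 122779522, overlaps P2rx4. This ATP-gated channel gene was at 13.3 and 11.3 FPKM (log2 −0.24), the opposite direction. Whether P2rx4 reaches the deposited interval was not tested. Reads from an overlap could not be assigned by strand, since no source used here states that strand was kept. Camkk1, the other upstream kinase gene, was at 0.732 and 0.790 FPKM and did not count as expressed. Camkk2 exceeded Camkk1 by 4.68 times in control and 5.92 times in HIF-PPN hearts.

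Among the kinases that CaMKK activates, Camk1 was abundant and close in both groups, Camk1d was low and lower in HIF-PPN hearts, and Camk4 was barely detected. Camk1 was at 45.7 FPKM (control) and 48.3 FPKM (HIF-PPN), a log2 of 0.08, which placed it second in the family after Camk2d. The deposited rows place it on chromosome 6 from 113326976 to 113343922, positions given also to the DNA repair gene Ogg1 (3.43 and 4.47 FPKM). In RefSeq, Camk1 itself spans 113334124 to 113343922. Camk1d, which encodes CaMK1δ, was at 2.41 and 1.56 FPKM, a 1.55-fold lower value in HIF-PPN hearts (log2 −0.63). Camk1d and Camk2b were the 2 members that differed by at least 1.5-fold in either direction, beside 9.42% of all expressed genes. Camk1d lies on chromosome 2 from 5293457 to 5714762. Camk4, a nuclear kinase best known from neurons and T cells, was at 0.159 and 0.0620 FPKM, and no fold is read from values this low. T and B cell markers beside it were low too, with 6 of 9 under 1 FPKM in both groups and sums of 5.86 and 6.13 FPKM. Camk1 and Camk1d together came to 48.1 and 49.9 FPKM, 3.70% higher in HIF-PPN hearts.

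Outside the 10 genes, the only other kinase gene of the family that was expressed was Pnck, which encodes CaMK1β, at 8.60 and 8.29 FPKM (log2 −0.05). Camk1g was under 1 FPKM in both groups (0.409 and 0.263 FPKM), and Camkv, which encodes a kinase-like protein without activity, was listed at 0 in both. Pnck was therefore more abundant than Camk1d in both groups.

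Calm2 and Calm3 both encode calmodulin, whose binding switches the kinases on, and their values differed in opposite directions between the groups. Calm2 was at 100.6 and 96.2 FPKM (log2 −0.07) and Calm3 at 82.2 and 101.5 FPKM (log2 0.30). Of the 5 expressed genes of the list of calmodulin and its binding regulators, 1 was higher and 4 lower (median log2 −0.29). Pcp4l1, most abundant of the list, was at 169.9 and 134.3 FPKM (log2 −0.34). Nrgn, which encodes the neuronal calmodulin-binding protein neurogranin, was at 2.95 and 2.42 FPKM (log2 −0.29). Pcp4, which encodes a small protein that speeds calcium exchange on calmodulin, was the only one that differed at least 2-fold, at 1.56 and 0.262 FPKM (log2 −2.57), and it counted as expressed only through its control value.

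Transcripts of proteins that CaMK2 phosphorylates in cardiomyocytes were mostly lower in HIF-PPN hearts, 10 of 11 with a median log2 of −0.36, none of them 2-fold. The highest levels were those of the phospholamban gene Pln (4834 and 3095 FPKM, log2 −0.64), Atp2a2 of the calcium pump (4486 and 3507 FPKM, −0.36), the ryanodine receptor gene Ryr2 (193 and 116 FPKM, −0.74) and the myosin-binding protein gene Mybpc3, the single gene with a higher value (905 and 1190 FPKM, 0.40). Set beside Camk2d at a log2 of −0.26, Pln and Ryr2 had a larger deficit than the kinase gene. Both also belong to the 8 cardiomyocyte markers, all of them lower in HIF-PPN hearts (median log2 −0.12). Among all expressed genes, 52.1% had a higher value. Of 15 measured nuclear targets of CaMK signalling, 5 were higher and 10 lower (median −0.14, none 2-fold), with the transcription factor genes Mef2a at −0.36 and Mef2d at −0.05, the histone deacetylase gene Hdac5 at 0.04 and the transcription activator gene Camta1 at −0.30.

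Other calmodulin-dependent enzymes showed smaller differences than Camk2b. Of 8 expressed kinases outside the family, 3 were higher and 5 lower (median log2 −0.18, none 2-fold), with the cardiac myosin light chain kinase gene Mylk3 at 237 and 172 FPKM (−0.46), its relative Mylk4 at 64.3 and 35.7 FPKM (−0.85), the phosphorylase kinase gene Phkg1 at 15.6 and 21.3 FPKM (0.45) and the death-associated kinase gene Dapk1 at 14.8 and 11.7 FPKM (−0.33). The calcineurin and NFAT list, the other main route from calmodulin to transcription, lay near 0, with 4 of 12 higher, 8 lower and a median of −0.06. Its most abundant genes were the calcineurin regulators Rcan2 (log2 0.00) and Rcan1 (−0.10) and the calcineurin subunits Ppp3r1 (−0.06) and Ppp3cb (−0.11). Of 7 phosphatase genes whose products remove phosphate from CaM kinases, 4 were higher and 3 lower (median 0.03), with Ppp1cb at −0.05, Ppp1ca at 0.03, Ppp2ca at −0.02 and Ppp2cb at −0.11. The dedicated CaM kinase phosphatase genes Ppm1f and Ppm1e, named after their values were seen, were at log2 values of 0.33 and 0.48.

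The 8 genes of the AMPK list, made up of AMPK subunits and of Stk11, an AMPK kinase alternative to CaMKK2, were divided. Of these, 5 were higher and 3 lower (median log2 0.11). Prkag1 was at 87.3 and 80.8 FPKM (−0.11), the catalytic subunit gene Prkaa2 at 58.1 and 43.4 FPKM (−0.42), Prkab2 at 30.0 and 33.4 FPKM (0.15) and Stk11 at 50.2 and 52.8 FPKM (0.07). Prkag3, the γ subunit of skeletal muscle, was at 0.724 and 1.77 FPKM (1.29) and passed the filter only through its HIF-PPN value.

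**Figure D4:**
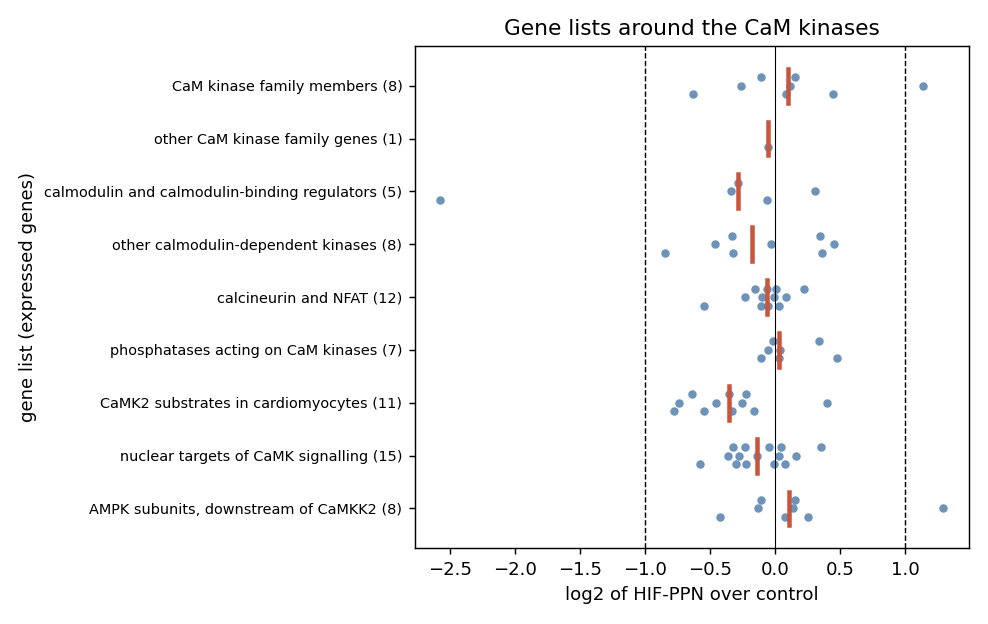
Log2 of HIF-PPN over control for the expressed genes of 9 lists (points, the number of genes in brackets, spread vertically for legibility), with the median of each list as a red bar and 2-fold marked by dashed lines. The family spans −0.63 to 1.14, the CaMK2 substrates have the lowest median at −0.36, and Camk2b, Pcp4 and Prkag3 are the points beyond 2-fold.

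The tissue label was checked against markers. All 8 cardiomyocyte markers were expressed, each lower in HIF-PPN hearts, with a median log2 of −0.12, and Myl2 was the most abundant (−0.08). Medians were −0.19 for 6 endothelial markers (most abundant Cdh5, −0.07), 0.12 for 6 smooth muscle markers (Acta2, −0.87), −0.16 for 7 myeloid markers (Lyz2, −0.15), −0.33 for 3 expressed markers of Schwann cells and glia (Mbp, −0.36) and 0.06 for 3 expressed lymphocyte markers (Cd79b, 0.06). Of 7 adipocyte markers, 6 were expressed and all 6 were higher, with Adipoq, Plin1, Cidec, Retn and Ucp1 at least 2-fold higher and the most abundant, Fabp4, at 0.43. Plin1 and Retn (0.379 and 1.52 FPKM) were under 1 FPKM in control hearts, which leaves 3 at 2-fold among those at 1 FPKM in both groups. The list summed to 922 FPKM (control) and 1265 FPKM (HIF-PPN). Nearly all of this sum was Fabp4 alone, at 916 and 1233 FPKM, so it mostly reflects 1 gene. In bulk tissue, fewer cells of a type and less RNA per cell cannot be told apart. The part of cell composition in the family values was not tested.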

How the data were processed

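Poly A RNA from ventricles of 3 control and 3 HIF-PPN mice was sequenced (paired-end). Per the submitters' processing notes, TopHat and Bowtie served for mapping, Cufflinks for quantification and Cuffdiff for comparison; the methods name an earlier mouse build and then mm10. The deposited FPKM values hold 1 value per group and gene, so depth per sample is unknown and no test, interval or floor could be given. The deposited log2 column holds the authors' own fold changes and was not used. Positions were compared with RefSeq (GRCm38.p6), where 99.2% of 21956 genes matched by name overlapped, and are printed 1-based.

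Log2 values are log2 of HIF-PPN over control, with no pseudocount, recomputed from the FPKM values. A gene counted as expressed at 1 FPKM in at least 1 group and above 0 in both. The 9 pathway lists and 9 marker lists were described by counts and medians. Named genes are the 10 members, the 4 most abundant and every 2-fold gene of each pathway list, and the most abundant and every 2-fold gene of each marker list. Others are named to complete a count, as neighbours or as markers of fast fibres. One listed gene is not reported here and was left out of its list. The members and lists were chosen with earlier results of these data known. Coding transcripts were counted in GENCODE vM1 (NCBIM37), by name only. The counting was checked on control values multiplied by known folds with no noise, which checks the arithmetic only and lends no support to the counts. Alternatives were other folds, filters, pseudocounts, scalings and sums. Python 3.11.15, numpy 2.4.6, pandas 2.3.3 and matplotlib 3.10.9 were used.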

Additional observations from a re-analysis of the deposited data

How the results depend on the processing

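The log2 of the 10 members was recomputed with a pseudocount of 0.1 or 1 FPKM. It was also centred by the median gene, or each group was rescaled to its sum or upper quartile. No sign changed, and none could. An equal pseudocount cannot change a sign, and the other settings moved every log2 by 0.06 at most. The smallest member log2 was that of Camk1, at 0.08. The log2 of Camk2b ranged from 1.01 to 1.20 and stayed past 2-fold. That of Camk2d ranged from −0.29 to −0.20 and that of Camk2g from −0.13 to −0.05. The log2 of Camk4 went from −1.36 to −0.13 with a pseudocount of 1 FPKM and to −0.68 with 0.1 FPKM. With a threshold of 1.5-fold, 2 members passed (Camk1d joins Camk2b), as did 9.42% of all genes. With no filter on low values, 2 members passed at 2-fold (Camk4 joins) and 9.07% of all genes. The share of all genes past 2-fold was 1.60% among genes at 1 FPKM in both groups and 1.41% with a pseudocount of 1 FPKM. The inhibitor stood at 8.15% and 10.9% of Camk2d alone. The CaMK2 shares stayed within 1.5 times under both other sums, one of them weighted by coding length. Pcp4 and Prkag3 among the pathway lists, and Tubb3, Dbh, Tnni2, Plin1 and Retn among the markers, left the 2-fold counts when 1 FPKM was required in both groups. No paired analysis was possible because the deposited values merge the 3 mice of each group, and for the same reason no mouse could be left out. With 1 value per group, no difference here has a replicate check.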
